A study of Homo sapiens with 12 samples.

Results

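The genes described here build the centromere and the kinetochore and run the spindle checkpoint. They are 41 genes of the 63677 listed in the count table, taken as the rows whose Ensembl identifier maps to a fixed set of symbols: the CENP genes, the subunits of the NDC80, MIS12 and SKA complexes, the genes that load CENP-A, the spindle checkpoint genes and the shugoshins. The rule itself uses no measured value. All 41 passed the filter on low counts, which left 17730 genes to test.

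The libraries came from HCT116, a human colon cancer cell line, 72 h after transfection. Poly(A) RNA was sequenced in 12 libraries, 2 per group, described as biological duplicates. Cells of the groups siTotal1 and siTotal2 each received 1 of 2 siRNA sequences against all transcripts of NFYA, the DNA-contacting subunit of the CCAAT-binding factor NF-Y. Cells of the groups siLong1 and siLong2 each received 1 of 2 sequences against the NFYA transcripts with the longest 3′ UTR. The siControl cells received a non-targeting siRNA and the mock cells the transfection without any siRNA. All siRNAs were used at 62.5 nM. HCT116 is 1 established line, so a result here is about that line, and the spread between libraries is the spread between transfected wells.

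The kinetochore is a protein assembly that forms on each centromere and ties the chromosome to spindle microtubules. CENP-A, a variant of histone H3, marks the centromere, the constitutive centromere network sits on it, and the KNL1, MIS12 and NDC80 complexes reach from that network to the microtubule. Unattached kinetochores recruit checkpoint kinases and MAD2, which hold back the anaphase promoting complex until every chromosome is attached. Many of these genes are known to be transcribed in G2 and mitosis, and NF-Y sites and the cell cycle genes homology region (CHR), a promoter element read by the MYB-MuvB and DREAM complexes, are known features of such promoters.

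The 4 siRNAs against NFYA are the agents that define the tested groups, and their sense strands are shown because the 2 sequences to each target gave different results for many of these genes. The capitals mark bases 12 to 18 of the sense strand, which correspond to the seed, bases 2 to 8, of the antisense strand. The labels list 2 sequences per target without saying which carries the number 1.
siTotal, listed first: acuagaggcagAAGGGAAa
siTotal, listed second: uggugaaggugGACGAUUu
siLong, listed first: agugaucauugUAGGGUAa
siLong, listed second: ggucauuccuuUAGCAUCa

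Promoter windows were available in RefSeq (GRCh38.p14) for 33 of the 41 genes, 39 windows in all, each with 250 bases before and 50 after an annotated start site. The core word of the NF-Y site, CCAAT or its reverse complement ATTGG, stood in the windows of 22 of the 33 genes (66.7%), against 39.7% of the 27305 genes with a window and 42.8% of the 11490 tested genes with one. Windows of equal length gave 64.1% of the 39 windows against 34.6% of all 35116. Of the 33 genes, 13 (39.4%) had 2 or more such words in a window, against 16% of the tested genes. The CHR core, searched as TTTGAA or TTTAAA and the reverse complement TTCAAA, stood in 17 of the 33 genes (51.5%), against 21.3% of the tested genes. These are counts of letters in a window and no test was made of them, and a match is not a binding site.

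The following windows are shown because CENPA, SPC24 and CENPF were among the largest called changes of at least 1 comparison, BUB1B is the checkpoint gene with a CHR word and no CCAAT word, and SKA2 has more CCAAT words than any of the other 32 genes and was not called in siLong against siControl. Capitals mark the word, the letters around it are the promoter strand read 5′ to 3′, and the position of the first capital is counted from the start site.
CENPA, chr2:26785916-26785940, plus strand, position -130: gcatactctcATTGGccctacctgc
CENPA, chr2:26786028-26786053, plus strand, position -18: gagcgagcgaTTTGAAcgcgagcggc
SPC24, chr19:11155842-11155866, minus strand, position -74: atcaaaaaatCCAATggaaagcaac
SPC24, chr19:11155877-11155901, minus strand, position -109: ccccatgcctATTGGccattgctta
CENPF, chr1:214603127-214603151, plus strand, position -58: gcaggcgcggATTGGtccgcagcta
CENPF, chr1:214603152-214603176, plus strand, position -33: cttagagtgaCCAATaggcgtggag
BUB1B, chr15:40161036-40161061, plus strand, position -23: gaccgttaaaTTTGAAacttggcggc
SKA2, chr17:59155225-59155249, minus strand, position -53: tgacagctgtCCAATggaggccctc
SKA2, chr17:59155257-59155281, minus strand, position -85: aacggaggagCCAATgagtgcgaga

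Total counts ran from 35604197 to 49746637 reads per library. Values are in CPM, read counts scaled to library size with TMM factors, and differences are log2 fold changes with their standard error (SE) from edgeR's quasi-likelihood test, called at a Benjamini-Hochberg adjusted p under 0.05 over all 17730 genes. NFYA itself had 47.9 and 46.8 CPM in siTotal1, 46 and 46.1 in siTotal2, 47.6 and 46.5 in siLong1, 69.7 and 70.2 in siLong2, 57.4 and 57.5 in siControl and 55.2 and 59.1 in mock. Its count over all transcripts was lower than in siControl in siTotal1 (-0.28), siTotal2 (-0.32) and siLong1 (-0.29), and higher in the libraries labelled siLong2 (0.28 ± 0.049), so the name siLong2 stands for that label throughout. Counts per gene do not separate the transcript with the long 3′ UTR. The epithelial markers EPCAM, CDH1, KRT8, KRT18, KRT19 and CLDN4 were present in every library, and their summed level was 5099 to 5597 CPM in the 4 siLong libraries against 3364 to 3871 CPM in the other 8, the siTotal, siControl and mock libraries. That difference lay mainly in the keratins KRT8, KRT18 and KRT19, each higher in every siLong library than in the other 8. EPCAM and CDH1 overlapped between siLong and siControl. Both were lowest in siTotal1, at 164.5 and 164.4 CPM for EPCAM and 55.9 and 57.3 CPM for CDH1. CLDN4 had 160.7 to 177 CPM in siLong, against 222 and 212 CPM in siControl and 120.8 to 139.8 CPM in siTotal and mock. Of the blood markers, PTPRC, CD3E and HBB reached at most 0.0566 CPM and CD14 0.444 CPM. The fibroblast markers summed to 25.9 to 43.7 CPM, nearly all of it COL1A1. DCN reached at most 2.55 CPM and was at 0 in 6 libraries. It differed within groups, with 2.1 and 0 CPM in mock and 0 and 1.1 CPM in siLong2. Of the neural markers, MBP had 29.6 to 49.9 CPM and GFAP and RBFOX3 at most 0.277 CPM. The part of these marker levels in the results was not tested.

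Levels were compared between genes as CPM per kilobase (kb) of exon. In siControl, ZWINT stood highest at 54.8 CPM per kb, followed by CENPW at 35.1, BUB1B at 35.0, a difference within the spread of the libraries, and BUB3 at 30.4. CENPP stood lowest at 0.759, with CENPC at 3.36, CENPL at 3.49 and CENPK at 4.12. The first group holds an adaptor of the outer kinetochore, a histone-fold protein and 2 checkpoint proteins, and the last 4 are all subunits of the constitutive centromere network.

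siLong against siControl sets the siRNAs to the long 3′ UTR transcripts of NFYA against the non-targeting siRNA. Nearly the whole set of genes moved one way. Of the 41 genes, 35 fell and 1 rose, and 28.4% of all genes tested fell and 25.1% rose (53.5% called in all). The median log2 fold change of the 41 was -0.476, beside -0.0123 for all genes tested. Summed over the 41 genes, the level was 2905 and 2759 CPM in siTotal1, 2932 and 2923 in siTotal2, 2320.0 and 2223 in siLong1, 2035 and 2005 in siLong2, 2721 and 2754 in siControl and 2874 and 2931 in mock. Every siLong library had a lower sum than every library of the other 4 groups, and the siLong2 sums were lower than the siLong1 sums. In bulk RNA, fewer cells in the phase of the cycle that uses these genes and less RNA per cell cannot be told apart.

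**Figure D1:**
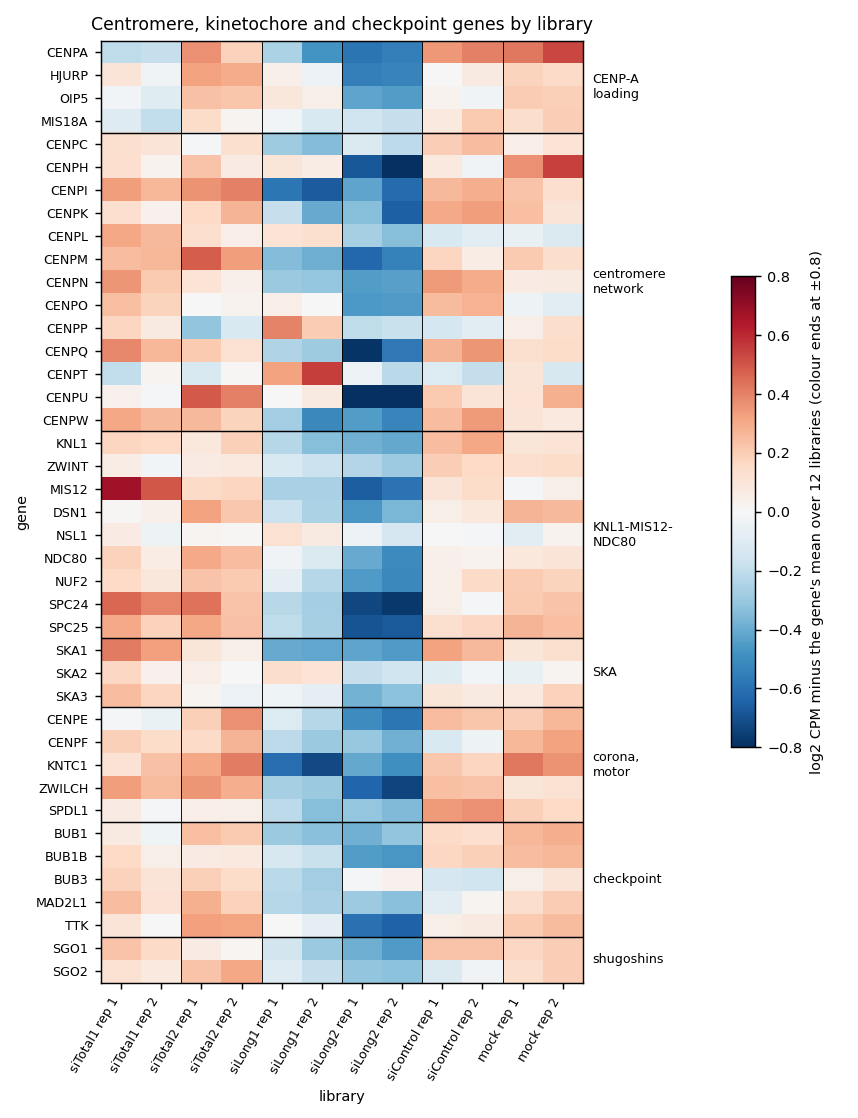
Each row is a gene and each column a library; the colour gives the log2 CPM minus the gene's mean over the 12 libraries, blue for lower and red for higher, with the genes ordered by role. The 4 siLong columns are blue in most rows, deepest in siLong2, while CENPT, CENPP, NSL1, SKA2 and BUB3 break the pattern.

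All 4 genes of the centromere chromatin group fell in siLong. CENPA, the centromeric histone itself, had 16.6 and 16.8 CPM in siTotal1, 24.7 and 21.8 in siTotal2, 16.1 and 13.7 in siLong1, 12.8 and 13.1 in siLong2, 24.4 and 25.4 in siControl and 25.7 and 27.8 in mock. Its 4 siLong libraries and both siTotal1 libraries lay below all siTotal2, siControl and mock libraries. The fall in siLong against siControl was -0.84 ± 0.066, a fold of 0.559 (edgeR, adjusted p = 1.99e-13), and it was called in siLong1 (-0.74 ± 0.077) and in siLong2 (-0.94 ± 0.079). HJURP, the chaperone that deposits CENP-A, had 81 and 74.1 CPM in siTotal1, 94.3 and 92.7 in siTotal2, 77.5 and 72.9 in siLong1, 51.7 and 52 in siLong2, 75.5 and 79.1 in siControl and 85.2 and 83.7 in mock. Here the siLong2 libraries alone stood apart, since siLong1 overlapped siControl. The fall was -0.58 ± 0.05 in siLong2, and siLong1 gave -0.04 ± 0.049 (adjusted p = 0.516). MIS18A, part of the complex that licenses the loading, fell by less (-0.27 ± 0.052), with siLong libraries at 31.6 to 35.3 CPM against 37.9 and 41.4 CPM in siControl. OIP5, the partner of MIS18A, fell (-0.18 ± 0.062), and siLong1 gave 0.067 without passing the test.

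Of the 13 genes of the constitutive centromere network, 10 fell and 1 rose in siLong, with a median of -0.564. CENPI, a subunit of the CENP-H/I/K/M group, had 24.1 and 23 CPM in siTotal1, 24.5 and 25.2 in siTotal2, 12.8 and 12.1 in siLong1, 14.3 and 12.5 in siLong2, 22.8 and 23.4 in siControl and 22.4 and 21 in mock. The 4 siLong values were roughly level with each other and far below the other 8, none of which was under 21.0 CPM. The fall was -0.84 ± 0.063 (edgeR, adjusted p = 4.96e-14), of like size in siLong1 (-0.90) and siLong2 (-0.79). CENPQ, of the CENP-O/P/Q/U/R group, had 24.7 and 22.8 CPM in siTotal1, 21.9 and 20.6 in siTotal2, 16 and 15.5 in siLong1, 11 and 12.7 in siLong2, 22.9 and 24.1 in siControl and 20.7 and 20.9 in mock, with siLong2 lowest. It fell (-0.78 ± 0.064). CENPN, which reads CENP-A nucleosomes together with CENPL, fell (-0.69 ± 0.042), with 50.9 to 56.4 CPM in siLong against 87.8 and 85.1 CPM in siControl. CENPW, a histone-fold subunit, fell (-0.73 ± 0.061), CENPC, the scaffold that links CENP-A to the MIS12 complex, fell (-0.46 ± 0.056), and so did CENPO (-0.48 ± 0.04).

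The pair CENPH and CENPL split the siLong sequences. CENPH had 16.6 and 15.4 CPM in siTotal1, 17.8 and 15.8 in siTotal2, 16.2 and 15.8 in siLong1, 9.47 and 8.07 in siLong2, 16 and 14.8 in siControl and 19.5 and 22.1 in mock. The siLong2 libraries were the lowest of all and the mock libraries the highest, and the siLong1 libraries overlapped siControl and siTotal. Against siControl, CENPH gave 0.053 ± 0.084 in siLong1 (adjusted p = 0.622) and -0.81 ± 0.092 in siLong2 (adjusted p = 1.62e-09). CENPL had 22.9 and 22.1 CPM in siTotal1, 20.2 and 19.2 in siTotal2, 20.0 and 20.1 in siLong1, 15.3 and 14.6 in siLong2, 17 and 17.3 in siControl and 17.8 and 17 in mock, so both siLong1 libraries lay above and both siLong2 libraries below the siControl libraries. Both departures passed the test, at 0.22 ± 0.07 in siLong1 and -0.20 ± 0.073 in siLong2. CENPU, which lies outside the rule for named genes and was picked after its values were seen, showed the widest gap between the siLong sequences, with 31.2 and 32.9 CPM in siLong1, 17.9 and 16.9 CPM in siLong2 and 36.2 and 33.7 CPM in siControl.

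CENPT, the subunit that binds the NDC80 complex directly, was the 1 gene that rose in siLong. It had 26.3 and 30.6 CPM in siTotal1, 27.8 and 30.3 in siTotal2, 37.7 and 44.1 in siLong1, 29.1 and 25.9 in siLong2, 28 and 26.5 in siControl and 32.4 and 27.5 in mock. The siLong1 libraries stood above all other 10, and the siLong2 libraries lay among them. The change was 0.30 ± 0.093 over both sequences (adjusted p = 0.0161), 0.59 ± 0.10 in siLong1 and 0.016 ± 0.11 in siLong2. CENPT exons overlap exons of genes on the other strand over 19.6% of their length, and the sources used here do not state whether the counting used strand.

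**Figure D2:**
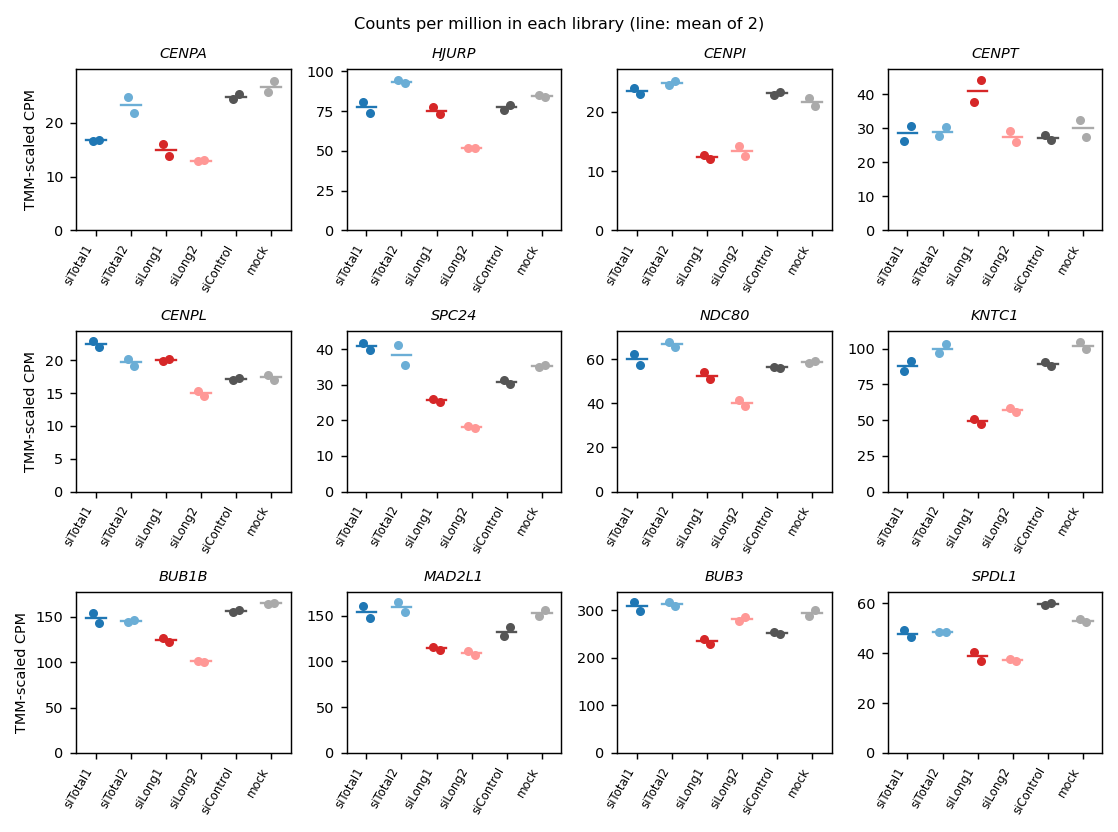
TMM-scaled CPM of 12 genes in each of the 12 libraries, by group; points are libraries, lines the mean of 2, and each panel starts at 0 on its own scale. CENPI and KNTC1 are low in all 4 siLong libraries, HJURP and NDC80 are lowest in siLong2, CENPA is also low in siTotal1, and CENPT is high in siLong1.

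In the network of KNL1, the MIS12 complex and the NDC80 complex, 8 of 9 genes fell in siLong, with a median of -0.42. NDC80, which contacts the microtubule, had 62.5 and 57.4 CPM in siTotal1, 68 and 65.4 in siTotal2, 54.1 and 50.8 in siLong1, 41.6 and 38.6 in siLong2, 56.6 and 56.2 in siControl and 58.3 and 59.1 in mock. Its siLong2 libraries were the lowest of the 12 and its siLong1 libraries lay between those and the rest. The fall was called in siLong2 (-0.49 ± 0.054) and siLong1 gave -0.10 ± 0.053 (adjusted p = 0.0931). KNL1, the scaffold for the BUB proteins, had 106 and 104 CPM in siTotal1, 99.1 and 107 in siTotal2, 79.8 and 73.9 in siLong1, 71.6 and 70.4 in siLong2, 111 and 116 in siControl and 100.0 and 101 in mock, and the 4 siLong libraries reached at most 79.8 CPM while no other library was under 99.1 CPM. It fell (-0.62 ± 0.04) (edgeR, adjusted p = 6.17e-16). ZWINT, which joins KNL1 to the corona, fell (-0.38 ± 0.037).

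SPC24, a subunit of the inner end of the NDC80 complex, had 41.9 and 39.8 CPM in siTotal1, 41.1 and 35.6 in siTotal2, 26 and 25.2 in siLong1, 18.4 and 17.8 in siLong2, 31.4 and 30.1 in siControl and 35.1 and 35.6 in mock. Both siLong groups were below siControl and mock, and both siTotal groups above siControl. The fall in siLong was -0.51 ± 0.057, with -0.26 ± 0.065 in siLong1 and -0.77 ± 0.068 in siLong2. The other 5 genes of this network, MIS12, DSN1, NSL1, NUF2 and SPC25, ran from -0.60 (SPC25) to 0.0081 (NSL1), and NSL1, a MIS12 complex subunit, was the 1 that did not pass.

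SKA1, of the complex that holds the kinetochore on shortening microtubules, had 55 and 51.7 CPM in siTotal1, 44.1 and 42.6 in siTotal2, 31.1 and 30.9 in siLong1, 30.8 and 30.1 in siLong2, 51.4 and 49.4 in siControl and 44.1 and 45.1 in mock. The siLong libraries lay between 30.1 and 31.1 CPM, below every other library. The fall was -0.71 ± 0.046, nearly the same in siLong1 (-0.70) and siLong2 (-0.73). SKA3 fell (-0.29 ± 0.043), and SKA2 gave 0.036 ± 0.042 (adjusted p = 0.49), combining a called rise in siLong1 (0.18) and -0.11 in siLong2.

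All 5 genes of the corona and motor group fell in siLong, with a median of -0.655. KNTC1, the ROD subunit of the complex that brings dynein and MAD1 to the kinetochore, had 84.5 and 91.6 CPM in siTotal1, 96.5 and 104 in siTotal2, 51 and 47.2 in siLong1, 58.7 and 55.5 in siLong2, 90.3 and 87.6 in siControl and 104 and 99.8 in mock. Its siLong libraries, at most 58.7 CPM, did not come near the other 8, and it was the 1 gene of the 41 that fell further in siLong1 (-0.86 ± 0.052) than in siLong2 (-0.64 ± 0.052) with the difference called. ZWILCH, of the same complex, had 68.8 and 65.2 CPM in siTotal1, 69.8 and 66.8 in siTotal2, 45.4 and 44.4 in siLong1, 35.2 and 32.9 in siLong2, 64.6 and 63.9 in siControl and 58.4 and 59.3 in mock and fell (-0.72 ± 0.044) (edgeR, adjusted p = 1.81e-16). SPDL1, the adaptor that recruits dynein to that complex, had 49.2 and 46.6 CPM in siTotal1, 48.6 and 48.5 in siTotal2, 40.6 and 37 in siLong1, 37.8 and 36.8 in siLong2, 59.4 and 60.4 in siControl and 53.7 and 52.4 in mock. Its siLong libraries were lowest and its siControl libraries highest, with siTotal and mock between, and the fall in siLong was -0.66 ± 0.045. CENPF, a large corona protein, fell (-0.22 ± 0.039), with 204 to 230.5 CPM in siLong against 244.5 and 259 CPM in siControl. CENPE, the kinetochore motor, fell (-0.59 ± 0.046).

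Of the 5 checkpoint genes, 4 fell in siLong. BUB1B (BUBR1), an inhibitor of the anaphase promoting complex, had 155 and 143 CPM in siTotal1, 145 and 146 in siTotal2, 126 and 122 in siLong1, 102 and 100.2 in siLong2, 155 and 158 in siControl and 164 and 166 in mock, so siLong2 was lowest, siLong1 next and no siLong library reached the other groups. It fell (-0.48 ± 0.036). MAD2L1, the MAD2 protein of the checkpoint signal, had 161 and 147 CPM in siTotal1, 165 and 154 in siTotal2, 116 and 113 in siLong1, 111 and 107 in siLong2, 127 and 138 in siControl and 149.7 and 156 in mock and fell (-0.25 ± 0.041), with no overlap of siLong with the other groups. TTK, the MPS1 kinase that starts the signal, had 89.2 and 83 CPM in siTotal1, 104 and 103 in siTotal2, 82.6 and 78.4 in siLong1, 54.8 and 52.9 in siLong2, 85.4 and 87 in siControl and 95.7 and 98.7 in mock. The siLong2 libraries were far below all others and the siLong1 libraries just under the rest. The change was -0.68 ± 0.048 in siLong2, beside -0.10 ± 0.046 in siLong1 (adjusted p = 0.0685). BUB1, the kinase that recruits shugoshins, fell (-0.48 ± 0.036).

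BUB3, the partner of BUB1 and BUBR1, did not follow the other checkpoint genes. It had 317 and 299 CPM in siTotal1, 318 and 308 in siTotal2, 240.1 and 229.8 in siLong1, 277 and 286 in siLong2, 255 and 249.7 in siControl and 288 and 300.1 in mock. The siLong1 libraries were the lowest and the siLong2 libraries lay above siControl and below siTotal. Against siControl BUB3 fell in siLong1 (-0.10 ± 0.041) and rose in siLong2 (0.16 ± 0.041), which left 0.029 ± 0.036 over both (adjusted p = 0.526). With the mean of siControl and mock as the control that value was -0.082 (adjusted p = 0.0164). The shugoshins, which guard centromeric cohesion, both fell. SGO1 had 26.9 and 25.6 CPM in siTotal1, 24 and 23.3 in siTotal2, 20.8 and 18.7 in siLong1, 17.5 and 16.8 in siLong2, 26.9 and 26.9 in siControl and 25.7 and 26.3 in mock and fell (-0.55 ± 0.057), and SGO2 fell (-0.16 ± 0.044), mostly through siLong2 (-0.25; siLong1 -0.072, adjusted p = 0.234).

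The siLong result depends on what counts as a replicate. With the 2 libraries of each sequence summed and each siRNA sequence taken as 1 replicate, with siControl and mock as 2 controls, none of the 41 genes was called in edgeR's quasi-likelihood test and 24 had an unadjusted p under 0.05. That fit called 1 of 19088 genes in all, with 2009 at an unadjusted p under 0.05, and gave the 41 genes a median log2 fold change of -0.5.

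The 2 siLong sequences differed in how far these genes fell. siLong1 against siControl called 4 genes higher and 29 lower with a median of -0.279 (54.5% of all genes called, 28.1% lower), and siLong2 against siControl called 1 higher and 36 lower with a median of -0.639 (52.7% called, 26.9% lower). In siLong1 against siLong2, 29 genes were higher and 2 lower, KNTC1 and BUB3, where 53.7% of all genes were called, 26.7% higher. Both sequences lowered 28 genes against siControl (68.3% of the 41, and 15.4% of all genes tested). Of these 28, the difference between the sequences was not called for 10, which were CENPI, CENPC, CENPW, SKA1, CENPF, SPDL1, MAD2L1 and MIS18A, with CENPK and BUB1 beside them. The fall was further in siLong2 for 17, and further in siLong1 for KNTC1. The share of all genes with each of these patterns was not counted.

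Against siControl, genes lowered by siLong2 and not called lower in siLong1 were 8: HJURP, OIP5, CENPH, CENPL, CENPU, NDC80, TTK and SGO2. For all 8 the difference between the sequences passed the test, as it did for 53.7% of all genes tested. The share of all genes with the pattern of these 8 was not counted. The pattern depends on the control. Against mock, both sequences lowered 33 genes (80.5% of the 41, and 12.4% of all genes tested). HJURP, CENPH, CENPU, NDC80, TTK and SGO2 were among those 33, and OIP5 and CENPL were not. Over all 41 genes, the widest differences were CENPU at 0.88 ± 0.069 and CENPH at 0.87 ± 0.092 (edgeR, adjusted p = 4.09e-10), followed by TTK at 0.58 ± 0.048, CENPT at 0.57 ± 0.10 and HJURP at 0.54 ± 0.05. By complex, all 9 genes of the KNL1, MIS12 and NDC80 network were higher in siLong1 than in siLong2, while of the corona group CENPF and SPDL1 and of the checkpoint group BUB1 and MAD2L1 were not called.

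**Figure D3:**
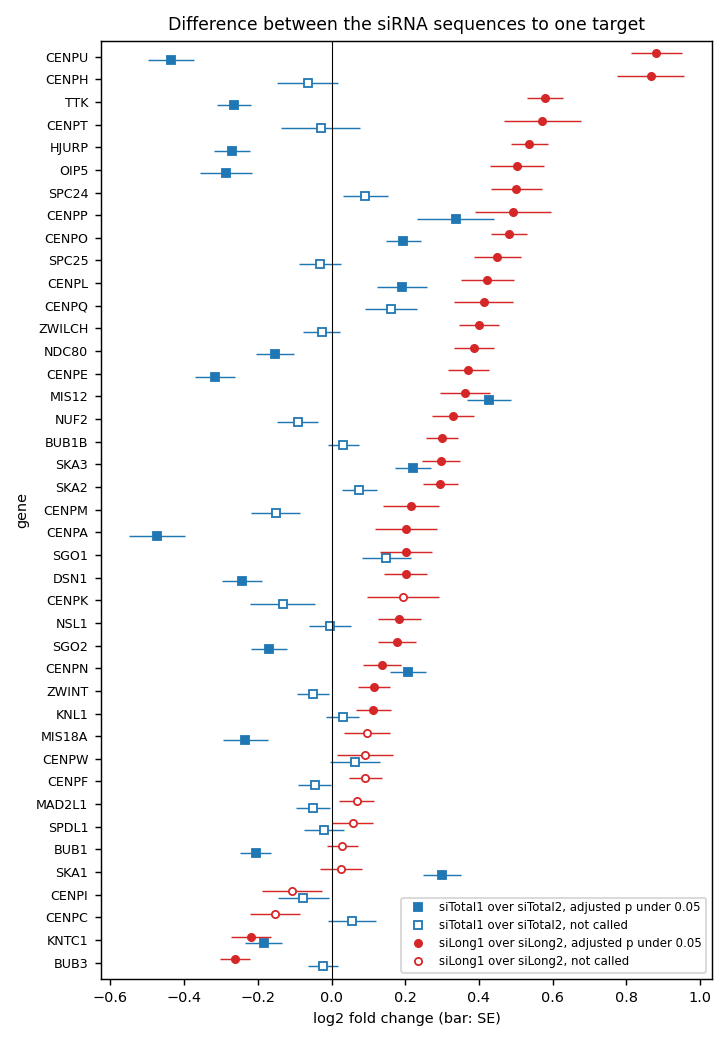
Log2 fold changes with SE bars between the 2 sequences to one target: siTotal1 over siTotal2 as squares and siLong1 over siLong2 as circles, filled where the adjusted p is under 0.05, with genes sorted by the siLong value. The siLong circles lie to the right of 0 for 37 of the 41 genes, up to 0.88, and the siTotal squares lie on both sides, between -0.47 and 0.43.

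siTotal against siControl sets the siRNAs to all NFYA transcripts against the non-targeting siRNA. Here the 41 genes went both ways by small amounts. Of them, 12 rose and 9 fell, against 22% and 22.2% of all genes tested (44.2% called in all). The median was 0.0737, beside 0.00202 for all genes, and 31 of the 41 lay within 0.2 of 0 on the log2 scale. The share of all genes within 0.2 was not counted. The share called among the 41 is near that of all genes. With each siRNA sequence as 1 replicate, none of the 41 was called, none had an unadjusted p under 0.05, and 423 of 19088 genes did.

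The largest rises in siTotal were SPC24, BUB3 and CENPL. SPC24 rose by 0.36 ± 0.055 (edgeR, adjusted p = 7.99e-07), by 0.41 in siTotal1 and 0.32 in siTotal2. BUB3 rose by 0.30 ± 0.036 and CENPL by 0.30 ± 0.061. For these 3 genes all 4 siTotal libraries lay above both siControl libraries. CENPF had 304 and 294 CPM in siTotal1, 296 and 321 in siTotal2, 230.5 and 217 in siLong1, 216 and 204 in siLong2, 244 and 259 in siControl and 320.2 and 332 in mock and rose by 0.27 ± 0.039. Its siTotal libraries lay above siControl and below or level with mock, and against mock it was called lower (-0.10 ± 0.038). MAD2L1 rose by 0.24 ± 0.041, SGO2 by 0.26 ± 0.043, NDC80 by 0.17 ± 0.045, HJURP by 0.14 ± 0.042 and TTK by 0.13 ± 0.04. siTotal2 carried the rises of HJURP (0.27) and TTK (0.26), and in siTotal1 neither passed the test (HJURP 0.005, TTK -0.0023). NDC80 was also called in siTotal2 (0.24) and not in siTotal1 (0.089, adjusted p = 0.176). The other 3 that rose were MIS12, CENPM and SKA2, by 0.12 to 0.25.

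The largest falls in siTotal were CENPA, SPDL1 and MIS18A. CENPA fell (-0.33 ± 0.064) (edgeR, adjusted p = 4.33e-05), and siTotal1 carried it, with -0.57 ± 0.076 there and -0.097 ± 0.073 in siTotal2 (adjusted p = 0.3). SPDL1 fell (-0.31 ± 0.045), alike in siTotal1 (-0.32) and siTotal2 (-0.30). MIS18A fell (-0.18 ± 0.052), with -0.29 in siTotal1 and -0.06 in siTotal2 (adjusted p = 0.448). CENPO (-0.15 ± 0.04), CENPN (-0.14 ± 0.041), CENPC (-0.14 ± 0.055), ZWINT (-0.13 ± 0.036), KNL1 (-0.13 ± 0.039) and BUB1B (-0.088 ± 0.036) also fell. CENPO and CENPN were called higher against mock, at 0.18 ± 0.04 and 0.11 ± 0.042, so their direction turned with the control.

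Taken by sequence, siTotal1 against siControl called 9 genes higher and 8 lower, against 22.9% and 20.5% of all genes (43.4% in all). siTotal2 against siControl called 14 higher and 9 lower, against 22.6% each way (45.1% in all). With upper-quartile scaling the siTotal2 split was 19 higher and 4 lower. Called higher by both sequences were CENPL, SPC24, CENPF, BUB3, MAD2L1 and SGO2, 6 of 41 (14.6%, and 12.2% of all genes). Called lower by both were KNL1, ZWINT and SPDL1 (7.32%, and 11.1% of all genes). In siTotal1 against siTotal2, 7 genes were higher and 12 lower, against 23.3% and 20.6% of all genes (43.9% in all), and 6 and 17 with upper-quartile scaling. All 4 genes of the centromere chromatin group were lower in siTotal1, led by CENPA at -0.47 ± 0.077. Of the 3 SKA genes, 2 were higher in siTotal1, SKA1 by 0.30 ± 0.053 and SKA3 by 0.22 ± 0.049.

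**Figure D4:**
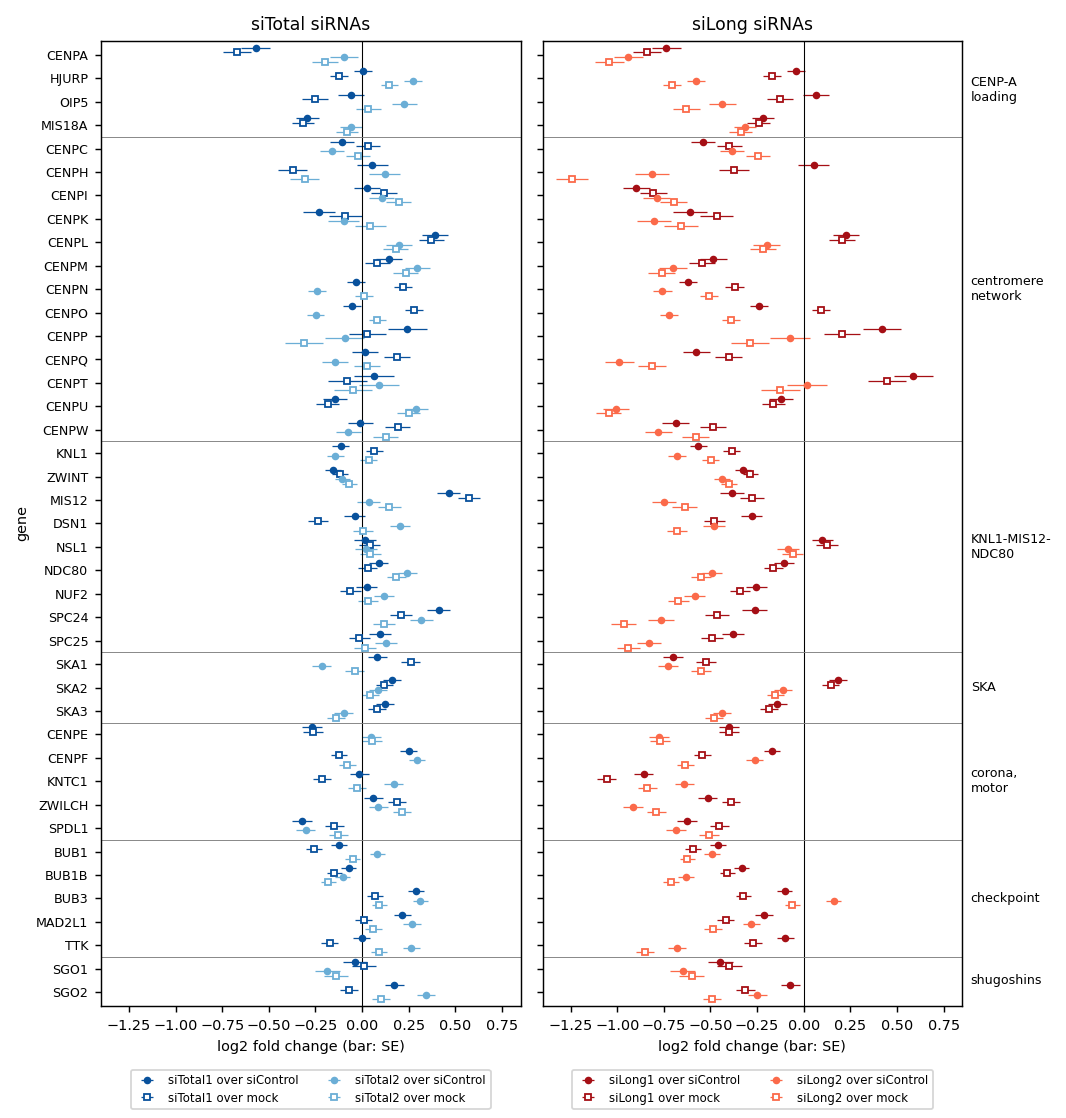
Log2 fold changes with SE bars of each siRNA sequence over siControl (filled circles) and over mock (open squares), siTotal sequences on the left and siLong sequences on the right, with genes ordered by role. The siTotal points lie on both sides of 0, from -0.67 to 0.57, and most siLong points lie left of 0, down to -1.24 for CENPH in siLong2 over mock.

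siTotal against siLong sets the siRNAs with the wider target against those to the long transcript. Of the 41 genes, 37 were higher in siTotal and 1 lower, against 28.1% and 25.3% of all genes tested (53.4% called in all), with a median of 0.468 beside 0.0106 for all genes. The largest were CENPI at 0.91 ± 0.053, SPC24 at 0.88 ± 0.046 and KNTC1 at 0.83 ± 0.037 (edgeR, adjusted p = 4.12e-20). CENPT was the 1 gene lower in siTotal, at -0.22 ± 0.075 (adjusted p = 0.0248), which was lost with the replicate block, and MIS18A, CENPP and NSL1 did not pass. BUB3, level in siLong against siControl, was higher in siTotal by 0.27 ± 0.029, and CENPL by 0.28 ± 0.049. With each sequence as 1 replicate, none of the 41 was called and 25 had an unadjusted p under 0.05, as did 1716 of 19088 genes.

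Taken library by library, all 4 siLong libraries lay below all 8 libraries of siTotal, siControl and mock for 27 of the 41 genes (65.9%, against 6.76% of all genes tested). For none of the 41 did they all lie above (5.65% of all genes). They lay below the 4 siTotal libraries for 29 genes (70.7%, against 11.3%). The 4 siTotal libraries lay below the siControl and mock libraries for ZWINT, SPDL1 and BUB1B (7.32%, against 5.52%). They lay above them for CENPL, CENPM, MIS12, SPC24 and ZWILCH (12.2%, against 6.35%).

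siControl against mock compares the 2 controls. In siControl against mock, 8 genes were higher and 12 lower, against 20.3% and 19.5% of all genes tested (39.8% called in all), with a median of -0.0432 beside -0.0069 for all genes. The calls went both ways, and their share is not far from that of all genes. CENPH was lower (-0.43 ± 0.08), as were CENPF (-0.37 ± 0.044) and SGO2 (-0.24 ± 0.049). CENPO was higher by 0.33 ± 0.046, CENPN by 0.25 ± 0.048 and CENPW by 0.20 ± 0.067. Of the checkpoint genes, BUB3 (-0.22), MAD2L1 (-0.21), TTK (-0.17) and BUB1 (-0.13) were lower, while CENPQ, KNL1, SKA1, ZWILCH and SPDL1 were the other 5 that were higher. Without the second siControl library 12 genes were called in place of 20.

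siLong against mock called 36 genes, all lower, with a median of -0.5 (50.8% of all genes called, 26.4% lower), and siTotal against mock 9 higher and 9 lower with a median of 0.00438 (30.8% called, 16.6% higher and 14.2% lower). The siTotal split with upper-quartile scaling was 5 higher and 11 lower. These comparisons share their siLong and siTotal libraries with those against siControl. KNTC1 was the gene furthest below mock in siLong, at -0.95 ± 0.043 (edgeR, adjusted p = 1.05e-19), with -1.06 in siLong1 and -0.84 in siLong2. CENPA followed at -0.94 ± 0.064 and CENPH at -0.81 ± 0.07, of which siLong2 gave -1.24. Against mock, BUB3 was called lower in siLong (-0.19 ± 0.035).

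By sequence, siLong1 against mock called 3 higher and 34 lower, where 52% of all genes were called and 26.1% lower. siLong2 against mock called 38, all lower, where 50.3% were called and 25% lower. siTotal1 against mock called 10 higher and 15 lower, against 22.1% and 18.7% of all genes (40.9% in all). siTotal2 against mock called 7 higher and 5 lower, against 14.1% and 12.6% (26.7% in all), or 9 and 4 with upper-quartile scaling. For 27 genes both siLong sequences were called lower against both controls (65.9%, against 7.24% of all genes). siTotal was called higher against both controls for CENPL, CENPM, MIS12 and SPC24 (9.76%, against 7.73% of all genes) and lower for CENPA, MIS18A, ZWINT, SPDL1 and BUB1B (12.2%, against 6.43%). CENPN, CENPO and CENPF were called in opposite directions against the 2 controls. Beside the count for siControl against mock, leaving out 1 library moved 3 other counts of calls by more than 1.5 times. siTotal against mock had 18 calls with all libraries, 9 without the first mock library and 11 without the second. siTotal2 against mock had 12 calls, 4 without the second mock library and 5 without the first siTotal2 library. siTotal2 against siControl had 23 calls and 15 without the second siControl library.

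The promoter words were set beside the changes as a description. In siLong against siControl, 9 of the 11 genes without a CCAAT word fell (median -0.42), 8 of 9 with 1 word (median -0.564) and 12 of 13 with 2 or more (median -0.476). Of all genes tested, 28.4% fell there. In siTotal against siControl the medians of these groups were 0.019, 0.074 and 0.084. All 17 genes with a CHR word fell in siLong (median -0.462), and 12 of the 16 without one (median -0.531). CENPI, with neither word in its window, had the largest fall of the 41, and SKA2, with 5 CCAAT words, gave 0.036. No test was made of these groups, and 8 genes had no window. Falls were not counted among the other tested genes with each word.

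**Figure D5:**
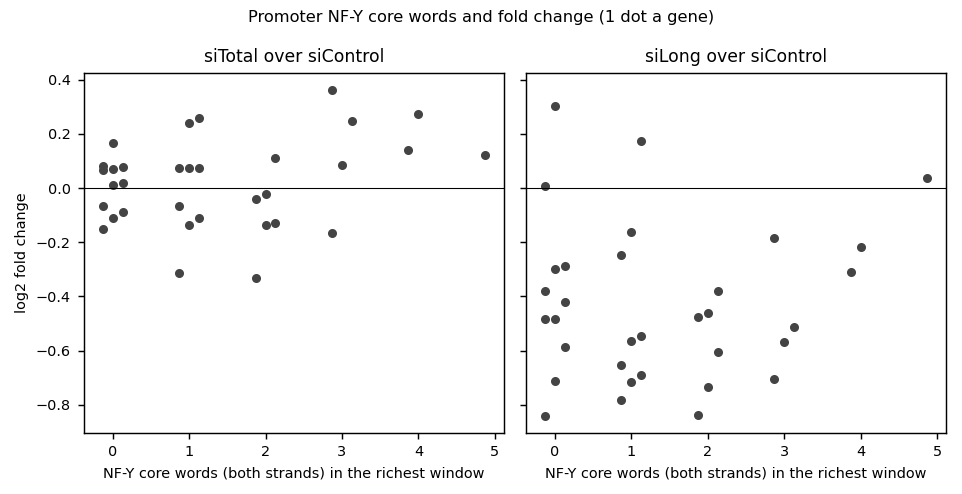
Each dot is 1 of the 33 genes with a promoter window; the x axis counts NF-Y core words on both strands in the window that holds most, and the y axis gives the log2 fold change over siControl, siTotal on the left and siLong on the right. The siLong dots lie mostly between -0.84 and -0.16 at every count from 0 to 4, and the 1 gene with 5 words lies at 0.036.

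Other genes of the pathway were taken from fixed lists. In siLong against siControl, 28.4% of all genes tested fell and 25.1% rose. Of 11 other kinetochore and centromere genes, 7 fell (63.6%) and 1 rose (9.09%), with a median of -0.188. All 4 genes of the chromosomal passenger complex, which corrects faulty attachments, fell (median -0.387). Against siControl PMF1, of the MIS12 complex, fell most of the first list (-0.58 ± 0.075) and AURKB, the kinase of the passenger complex, most of the second (-0.62 ± 0.04, edgeR, adjusted p = 9.59e-16). PMF1 was higher in siControl than in mock (0.43), and siLong against mock gave -0.15 (adjusted p = 0.112). Against mock the largest fall of that list was ITGB3BP, a centromere protein also named CENP-R (-0.63 ± 0.052). MAD1L1, the partner of MAD2, was the 1 that rose (0.14 ± 0.056). In siTotal against siControl, 22% of all genes tested rose and 22.2% fell. The counts were 4 higher and 2 lower of 11 (36.4% and 18.2%), and 1 higher and 1 lower of 4 (25% each way). MAD1L1 gave 0.24 ± 0.056 and PMF1 -0.38 ± 0.074 (PMF1 against mock 0.058, edgeR, adjusted p = 0.606). BIRC5 (survivin) rose by 0.19 ± 0.037 and CDCA8 (borealin), which had 63.1 and 63.7 CPM in siTotal1, 94.2 and 88.3 in siTotal2, 101 and 99.1 in siLong1, 82.7 and 88.7 in siLong2, 109 and 114 in siControl and 97.1 and 100.3 in mock, fell (-0.55 ± 0.04). Both siTotal1 libraries had the lowest CDCA8 levels of the 12.

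The anaphase promoting complex is the target of the checkpoint. Of its 16 subunits and co-activators, 9 fell and 3 rose in siLong against siControl (56.2% and 18.8%, against 28.4% and 25.1% of all genes; median -0.132), from ANAPC11, the RING subunit (-0.49 ± 0.046), to ANAPC13 (0.37 ± 0.046). In siTotal against siControl, 6 rose and 5 fell (37.5% and 31.2%, against 22% and 22.2% of all genes), from CDC26 (-0.39 ± 0.067, and -0.092 against mock with adjusted p = 0.323) to ANAPC13 (0.24 ± 0.046). Among 15 regulators of cell cycle genes, 8 fell and 2 rose in siLong (53.3% and 13.3%), with MYBL2, the MYB partner of the MuvB complex, lowest (-0.75 ± 0.035) and E2F5, a repressor E2F, highest (0.84 ± 0.086). E2F5 gave 0.57 in siLong1 and 1.11 in siLong2 over siControl, and 0.46 ± 0.08 in siLong over mock. MYBL2 had 233 and 215 CPM in siTotal1, 183 and 179 in siTotal2, 161 and 157 in siLong1, 100.0 and 99.5 in siLong2, 210.1 and 214 in siControl and 198 and 193 in mock, with siLong2 lowest, siLong1 next and siTotal1 highest. In siTotal, 7 regulators rose and 5 fell (46.7% and 33.3%). The 15 regulators include NFYA, the target of the siRNAs. NFYA was lower in both siTotal groups than in siControl, and that fall is not a separate result. NFYB, the histone-fold partner of NFYA, rose by 0.77 ± 0.051 in siTotal (adjusted p = 3.45e-15), with LIN52, a MuvB subunit, lowest (-0.42 ± 0.056). The siTotal sequences moved LIN52 opposite ways: it rose in siTotal1 (0.17 ± 0.063) and fell in siTotal2 (a fold of 0.498 over siControl), a log2 difference of 1.17 (edgeR, adjusted p = 1.47e-16).

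Exons of 15 of the 41 genes overlap exons of a gene on the other strand in the GENCODE annotation, 8 of them by more than 10% of their length, from 42.7% for CENPP to 10.9% for ZWILCH. The share of all genes tested with such overlap was not counted. Among the 26 genes with no such overlap, 23 were called in siLong against siControl, all lower (median -0.48). Of all genes tested, 28.4% fell and 25.1% rose there. Of the same 26, 24 were higher in siTotal than in siLong (median 0.474), against 28.1% of all genes tested. The 26 include BUB1B and CENPA, whose exons overlap those of a gene on the same strand (10.2% and 6.96% of their length). Among the 15 with opposite-strand overlap, 12 fell and 1 rose (median -0.42). The values of OIP5, SGO1 and CENPU, which share exon bases with OIP5-AS1, SGO1-AS1 and PRIMPOL, can hold reads of those genes.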

How the data were processed

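Poly(A) RNA of HCT116 cells was sequenced in 12 libraries, 2 per group, from a stranded kit per the labels' protocols. The authors deposited raw read counts per gene, and the submitters' processing notes name STAR 2.4.0f1, featureCounts and hg19. The sources used here state neither the annotation release nor the strand setting of the counting, so reads of overlapping genes may not be separated. Counts were used as deposited, in edgeR 4.0.16 on R 4.3.3: filterByExpr (minimum count 10, total 15), TMM, and the quasi-likelihood test with 6 groups, all 12 libraries and 6 residual degrees of freedom. P-values were adjusted by Benjamini-Hochberg over 17730 genes in each of 16 comparisons. The common biological coefficient of variation was 3.57%. The 2 libraries of a group differed by more than sampling noise, with chi-square values of 1.87 to 7.89 times their degrees of freedom, and each counted as a replicate. On simulated counts for siLong against siControl (17289 genes), 58% of 50 genes changed 1.2-fold were called, 94% at 1.5-fold and 98% at 2-fold, and 11 of 186 calls were false.

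The genes and lists were chosen with earlier results of these data known. Named genes were the 3 largest called rises and falls in siTotal and siLong against siControl, siTotal against siLong and siControl against mock, 1 or more genes fixed per role, and genes called against the majority. Of each pathway list the largest called change each way was named. OIP5, CENPK, CENPM, CENPP, CENPU, MIS12, DSN1, NSL1, NUF2, SPC25, SKA2, SKA3, CENPE and BUB1 lie outside that rule and were named after their values were seen. Promoter letters are from RefSeq (GRCh38.p14) and exon lengths and overlaps from GENCODE on GRCh38. Alternatives were RLE and upper-quartile scaling, no filter, DESeq2 1.42.0, a replicate block, the mean of both controls, only the libraries compared, each siRNA sequence as 1 replicate, and leaving out each library.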

Additional observations from a re-analysis of the deposited data

Results flagged for a closer look

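The 2 siRNA sequences to one target were set against each other by the test of the difference itself. For siTotal1 against siTotal2, 19 of the 41 genes differed, a share close to the 43.9% of all genes called there, so this count is not particular to these genes. For siLong1 against siLong2, 31 differed, against 53.7% of all genes. Between the targets, 38 of the 41 differed in siTotal against siLong, against 53.4% of all genes.

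Some genes were called in opposite directions by the 2 sequences to one target. HJURP was lower against mock in siTotal1 (-0.12 ± 0.048) and higher in siTotal2 (0.15 ± 0.047), a difference of -0.27 (edgeR, adjusted p = 1.56e-05). CENPU did the same, with -0.18 ± 0.063 in siTotal1, 0.25 ± 0.061 in siTotal2 and a difference of -0.43. CENPL was higher in siLong1 and lower in siLong2 against both controls, a difference of 0.42 (edgeR, adjusted p = 4.64e-06). BUB3 went the other way against siControl, lower in siLong1 and higher in siLong2, a difference of -0.26 (edgeR, adjusted p = 1.33e-06). SKA2 was higher in siLong1 (0.14 ± 0.047) and lower in siLong2 (-0.15 ± 0.048) against mock, a difference of 0.30. The cause of these differences was not tested. With 2 libraries in a group, a gap between them does not show which of the 2 departs.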

How the results depend on the processing

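Each siRNA sequence as 1 replicate, with siControl and mock as the controls, left 0 of the 41 genes called in siTotal against siControl, siLong against siControl and siTotal against siLong. In that fit CENPO in siTotal against siControl was 0.0054 (adjusted p = 1). With the mean of both controls CENPO was 0.014 (adjusted p = 0.783), BUB3 in siLong was -0.082 (adjusted p = 0.0164), and the counts were 18 (siTotal) and 37 (siLong). DESeq2 called 11 genes in siTotal against mock (18 in edgeR) and 7 in siTotal2 against mock (12 in edgeR). The cause was not tested.

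Leaving out 1 library gave, in calls, 15 to 23 for siTotal against siControl, 34 to 36 for siLong against siControl, 36 to 39 for siTotal against siLong, 12 to 16 for siControl against mock, 9 to 21 for siTotal against mock and 36 to 37 for siLong against mock. By sequence it gave 13 to 16 for siTotal1, 15 to 19 for siTotal2, 29 to 35 for siLong1 and 36 to 37 for siLong2 against siControl. Against mock it gave 18 to 19, 4 to 8, 34 to 36 and 36 to 37 for the same 4, and between sequences 17 to 20 for siTotal and 22 to 30 for siLong. A group left with 1 library was taken to vary like the others. RLE and upper-quartile scaling, no filter and only the libraries compared kept every total of calls within 1.5 times of the reported one, and no gene called in both turned direction. Counts in 1 direction moved further. Upper-quartile scaling gave 4 lower in siTotal2 against siControl, in place of 9. It gave 5 higher in siTotal against mock, in place of 9, as did no filter and only the libraries compared. siLong1 against mock had 5 higher in place of 3 with only the libraries compared, and siLong against mock 1 higher in place of 0 with no filter.

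Replicate numbers did not pair the libraries: deviations of same-numbered libraries correlated between -0.0851 and 0.0991 over 15 pairs of groups. The replicate block gave 37 calls in siTotal against siLong and 19 in siTotal against mock, and moved no other of the 16 counts. Changes of 1.2-fold were often missed in the simulated counts, where far fewer genes changed than were called here. The share missed in these data was not measured.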
